A study of Mus musculus with 18 samples.

Results

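The genes described here are Ifnb1, which encodes interferon beta (IFN-β), and 8 interferon regulatory factor genes, Irf1, Irf2, Irf3, Irf4, Irf5, Irf7, Irf8 and Irf9. They were chosen by gene symbol, and 9 of 9 were found, among 22485 genes on the array, through 10 probes of 44397. Irf1 had 2 probes, whose values were averaged, and each other gene had 1. The cells were macrophages cultured from the marrow of mice aged 8 to 10 weeks with M-CSF, the growth factor of macrophages, at 10 ng/ml for 7 days. On each array, RNA of 1 sample (Cy5 dye) was set against RNA of untreated macrophages (Cy3 dye), and all values below are log2 ratios of sample to that RNA, and the sources used here do not give its genotype. There were 5 arrays of Nrf2-/- cells given heme-albumin at 200 µM for 4 h and then LPS at 10 ng/ml for 4 h, and 3 arrays of Nrf2+/+ cells treated in the same way. A further 4 arrays held Nrf2-/- cells and 3 held Nrf2+/+ cells with 4 h of LPS. The last 3 held Nrf2+/+ cells with 4 h of albumin. Nrf2, encoded by Nfe2l2, is the transcription factor that drives antioxidant and heme-handling genes, and LPS is bacterial endotoxin. Whether the cells given LPS without heme had albumin first is not settled by the labels, and no Nrf2-/- cells without LPS were measured.

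IFN-β is the cytokine that macrophages secrete soon after LPS reaches the receptor TLR4. TLR4 signals through the adaptor TRIF and the kinase TBK1 to IRF3, a factor already present in resting cells, which enters the nucleus and switches on Ifnb1 together with NF-kB and AP-1. Secreted IFN-β binds its receptor, and the kinases JAK1 and TYK2 then lead to the complex ISGF3, of which IRF9 is a part. ISGF3 raises antiviral genes and Irf7, whose product feeds back on interferon genes. IRF1 is an inducible activator, IRF2 binds the same DNA and often opposes it, IRF5 drives inflammatory cytokines, IRF8 maintains the macrophage program, and IRF4 is linked to alternative activation.

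Heme before LPS lowered 7 of the 9 genes in Nrf2+/+ cells, Ifnb1 among them by 3.08 log2 units, where 6.35% of all genes were lowered. It lowered 1 of 9, Irf8, in Nrf2-/- cells, where 2.67% of all genes were lowered. The count of 7 was 3 when only the 2 groups compared entered the fit. Under heme and LPS, Ifnb1 was 22.4-fold higher in Nrf2-/- than in Nrf2+/+ cells, and Irf1, Irf2 and Irf5 were higher too. Of all genes, 2.13% were higher there. This count of 4 was 1 when only the 2 groups compared entered the fit. The test of whether the heme effect itself differed between the genotypes called 0 of the 9 genes, where 0.947% of all genes were called. Irf3 and Irf4 were called in neither heme comparison.

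The promoters of Ifnb1, Irf1, Irf2 and Irf8 are printed because they hold matches to the letters that are known as binding sites of interferon-activated factors or NF-kB. Each is the 250 bases before the first annotated start, 5′ to 3′ on the gene's strand, from RefSeq (GRCm38.p6). Capitals mark matches on either strand to the IRF core AANNGAAA, the gamma-activated site TTCNNNGAA, the NF-kB site (GGGA, any 2 bases, TTCC) and, within Irf2, an interferon response element (GAAA, any 2 bases, GAAA).
Ifnb1, chr4:88522795-88523044, minus strand: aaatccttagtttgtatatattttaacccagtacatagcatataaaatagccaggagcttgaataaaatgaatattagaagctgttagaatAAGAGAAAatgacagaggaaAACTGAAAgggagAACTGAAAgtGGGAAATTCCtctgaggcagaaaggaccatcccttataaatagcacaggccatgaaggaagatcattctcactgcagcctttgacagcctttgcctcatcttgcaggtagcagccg
Irf1, chr11:53769764-53770013, plus strand: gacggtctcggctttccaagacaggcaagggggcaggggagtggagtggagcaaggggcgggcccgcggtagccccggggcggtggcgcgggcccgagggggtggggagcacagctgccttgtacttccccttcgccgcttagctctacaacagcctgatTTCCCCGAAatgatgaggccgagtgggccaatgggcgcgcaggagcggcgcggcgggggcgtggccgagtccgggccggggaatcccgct
Irf2, chr8:46739495-46739744, plus strand: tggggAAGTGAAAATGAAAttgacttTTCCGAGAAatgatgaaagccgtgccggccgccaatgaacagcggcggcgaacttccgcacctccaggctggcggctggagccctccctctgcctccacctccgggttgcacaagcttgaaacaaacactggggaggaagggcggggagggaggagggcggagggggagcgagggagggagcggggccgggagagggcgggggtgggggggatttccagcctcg
Irf8, chr8:120736108-120736357, plus strand: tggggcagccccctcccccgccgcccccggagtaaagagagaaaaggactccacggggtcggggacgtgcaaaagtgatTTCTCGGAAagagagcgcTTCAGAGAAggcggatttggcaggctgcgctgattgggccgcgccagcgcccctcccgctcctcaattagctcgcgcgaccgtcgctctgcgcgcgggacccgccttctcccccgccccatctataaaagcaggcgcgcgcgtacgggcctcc

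Ifnb1 held 3 IRF cores, at 159 to 152, 139 to 132 and 126 to 119 bases before the start, and an NF-kB match at 116 to 107 bases. Irf1 held 1 gamma-activated site, at 90 to 82 bases. Irf2 held 2 overlapping IRF cores at 245 to 238 and 239 to 232 bases, the interferon response element at 241 to 232, which overlaps both, and a gamma-activated site at 224 to 216. Irf8 held 2 gamma-activated sites, at 171 to 163 and 153 to 145 bases. Over 32851 mouse promoter windows of this length, 21.3% held the IRF core, 7.02% the gamma-activated site, 2.98% the interferon response element and 1.21% the NF-kB site. All 9 genes had a promoter entry, and the first-start windows of Irf3, Irf4, Irf5, Irf7 and Irf9 held none of these letters. The Irf5 window lay inside the annotated gene and the Irf7 window partly inside it, so the Irf5 window does not cover the bases before the gene. A search for TGACNNNGC, the letters of the antioxidant response element that Nrf2 binds, matched Irf7 at 245 to 237 bases and the second start of Irf8 at 25 to 17 bases, against 10.2% of all windows. A match is a run of letters and not a measured binding site, and sites with other letters than those searched were left unmarked.

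**Figure D1:**
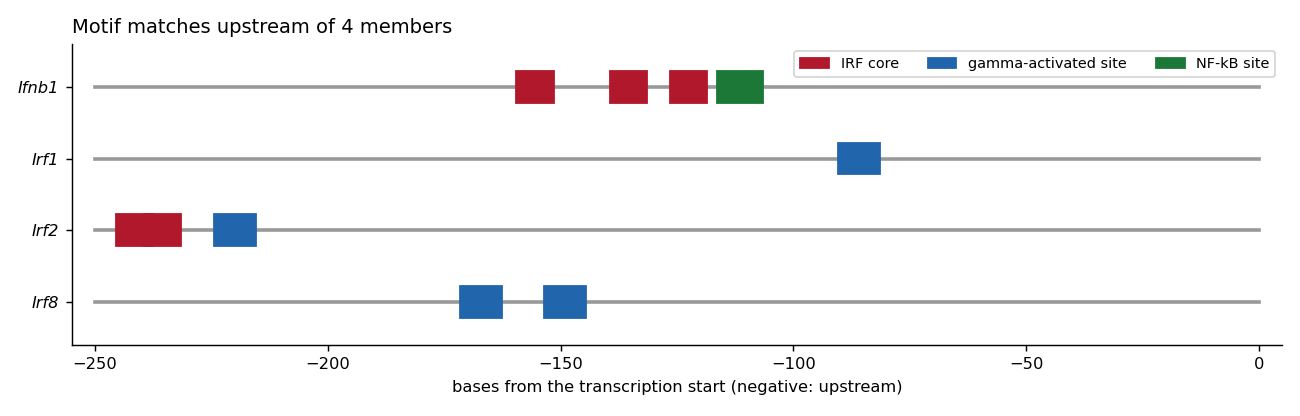
Motif matches in the printed promoter windows of Ifnb1, Irf1, Irf2 and Irf8, one row per gene. The x axis is the distance in bases from the annotated start, and each coloured mark is 1 match. Ifnb1 holds 3 IRF cores beside its NF-kB match, and Irf8 holds 2 gamma-activated sites.

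Every array had a median log2 ratio of 0 and 17.9% to 48.8% of its features at exactly 0. Replicate a of each LPS-treated group held 44.3% to 48.8% such features. Arrays of a group correlated over all genes at 0.67 to 0.86 (Nrf2-/- heme and LPS), 0.64 to 0.80 (Nrf2+/+ heme and LPS), 0.83 to 0.89 (Nrf2-/- LPS), 0.79 to 0.87 (Nrf2+/+ LPS) and 0.55 to 0.58 (albumin). The single Nfe2l2 probe was listed at 0 on 9 of 9 Nrf2-/- arrays and on 2 of 9 Nrf2+/+ arrays, and where it lies relative to the deletion is not given, so it does not check the labels. All 7 macrophage markers were measured, with a median log2 ratio per array between -0.69 and 0.31 over all groups, but ratios to another macrophage RNA cannot show that a cell type is present. Among markers of other cells, Ms4a1 of B cells was listed at 0 on every array. The other measured B cell markers were Blk, at 0 on 11 arrays, Vpreb3 on 8, Cd79a on 7, Pax5 on 6 and Cd79b on 0. A ratio listed at 0 does not show that a cell type is absent.

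Differences between groups were tested in 1 limma model over all 18 arrays, with p-values adjusted over all 22485 genes, and calls were made where the adjusted p was under 0.05. The comparisons share arrays and are not independent of each other. LPS against albumin in Nrf2+/+ cells called 5 members higher and 1 lower of 9, where 28.6% of all genes were called, 12.3% higher and 16.3% lower. Heme and LPS against LPS called 0 higher and 7 lower in Nrf2+/+ cells, against 14.7% of all genes, 8.34% higher and 6.35% lower. In Nrf2-/- cells it called 0 higher and 1 lower, against 6.77% of all genes, 4.10% higher and 2.67% lower. Nrf2-/- against Nrf2+/+ under heme and LPS called 4 higher and 0 lower, against 5.29% of all genes, 2.13% higher and 3.16% lower.

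Nrf2-/- against Nrf2+/+ under LPS called 0 of 9, against 0.00445% of all genes, and 1 member, Irf4, had an unadjusted p under 0.05. The difference of the heme effects, Nrf2-/- minus Nrf2+/+, called 0 of 9, against 0.947% of all genes (0.240% higher and 0.707% lower), and 2 members, Ifnb1 and Irf1, had an unadjusted p under 0.05. Heme and LPS against albumin in Nrf2+/+ cells called 1 higher and 3 lower, against 27.3% of all genes, 12.9% higher and 14.4% lower. The higher gene was Ifnb1, and the lower ones were Irf2, Irf3 and Irf8. The median log2 difference of the 9 members was 1.55 for LPS, -2.52 for heme in Nrf2+/+ cells, -0.39 for heme in Nrf2-/- cells and 1.41 for genotype under heme and LPS, while the median over all genes was 0 in each. The heme counts depend on the arrays that enter the model. With only the 2 groups compared in the fit, 3 members were called in Nrf2+/+ cells and 0 in Nrf2-/- cells, and the genotype comparison under heme and LPS called 1. Such fits hold fewer arrays, and the share of all genes called in them is not given here. These counts therefore do not show whether other genes lost calls as well.

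**Figure D2:**
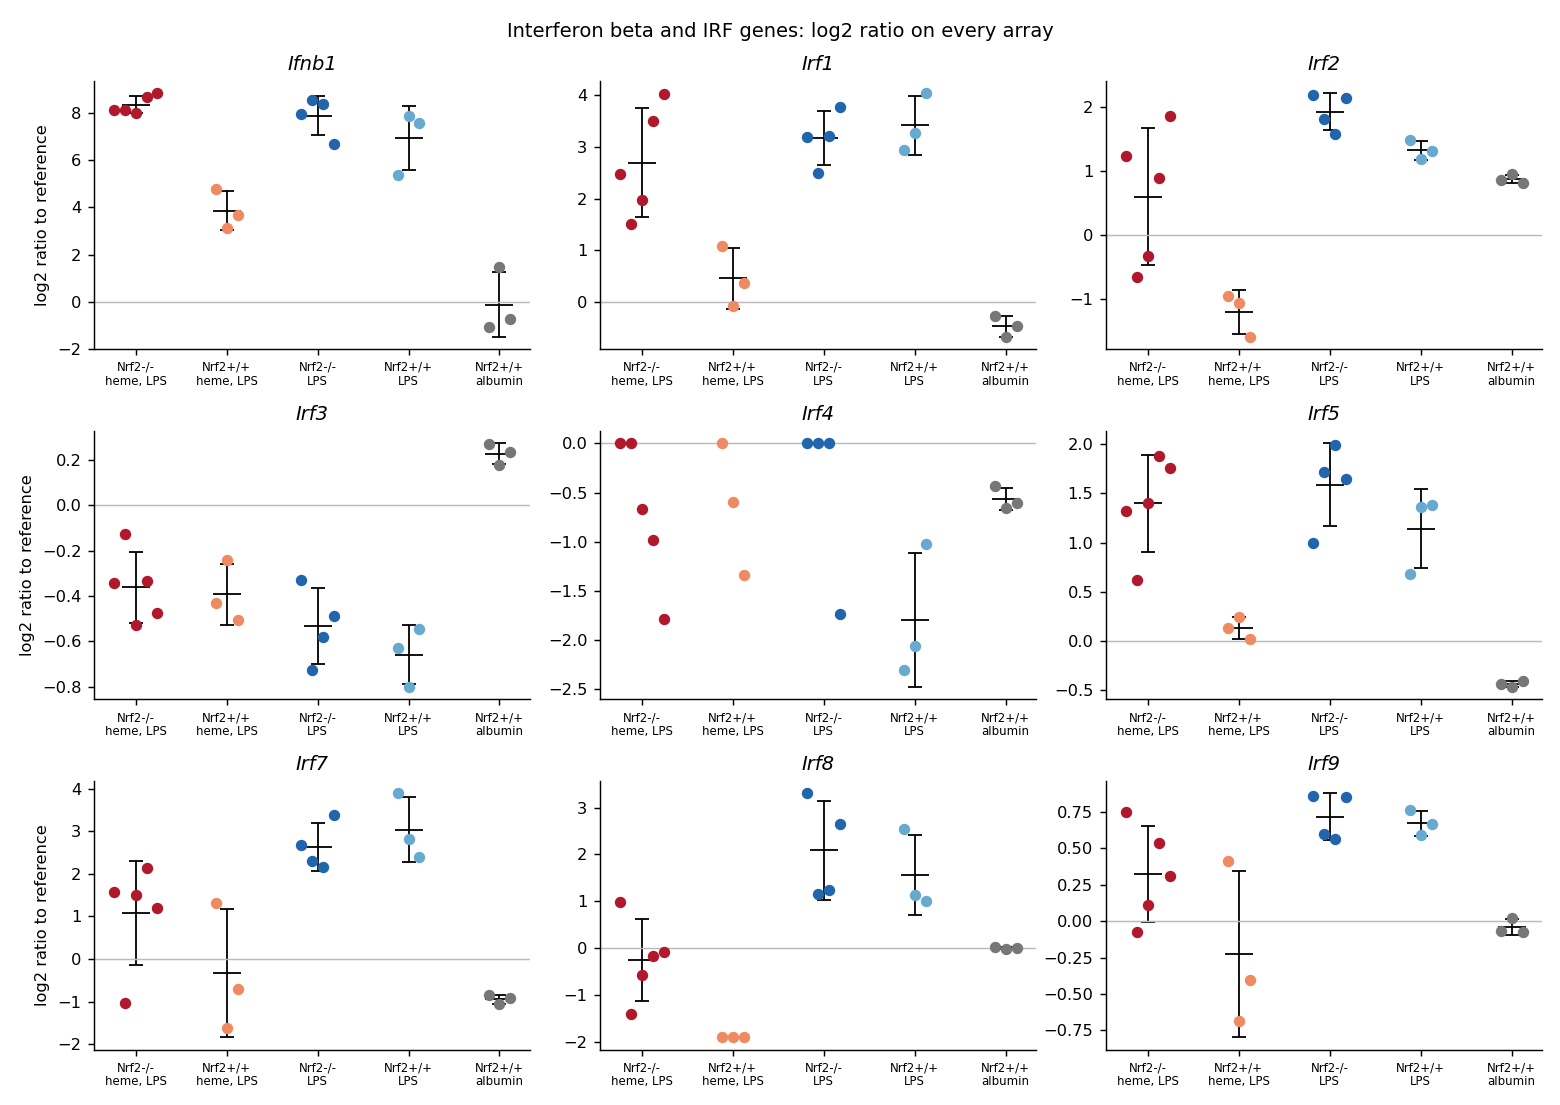
Log2 ratio of each of the 9 genes on every array, 1 panel per gene, with a point per array. The bars are the mean and SD of a group, left out where a value is listed at exactly 0. The 3 Nrf2+/+ heme and LPS arrays of Ifnb1 lie between 3.12 and 4.76, below all arrays of the other LPS-treated groups.

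Ifnb1, the ligand, read 8.10, 8.11, 8.00, 8.68 and 8.82 in Nrf2-/- cells under heme and LPS. In Nrf2+/+ cells with the same treatment it read 4.76, 3.12 and 3.68. The genotypes did not overlap under this treatment. Under LPS alone the readings were 7.96, 8.51, 8.36 and 6.66 in Nrf2-/- cells and 5.38, 7.87 and 7.56 in Nrf2+/+ cells. Here the genotypes overlapped, and the lowest Nrf2+/+ LPS array was still above the highest Nrf2+/+ heme and LPS array. With albumin the readings were -1.08, 1.46 and -0.73. Group means were 8.34 ± 0.38 (SD, n = 5), 3.86 ± 0.83 (n = 3), 7.87 ± 0.84 (n = 4), 6.94 ± 1.36 (n = 3) and -0.12 ± 1.38 (n = 3) in that order. Nrf2-/- LPS arrays overlapped both Nrf2-/- heme and LPS arrays and Nrf2+/+ LPS arrays, which did not overlap each other. Nrf2+/+ cells under heme and LPS and albumin cells stood apart below these.

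LPS raised Ifnb1 133-fold over albumin in Nrf2+/+ cells, by 7.05 ± 0.74 log2 units (SE, adjusted p = 7.36e-06). Heme before LPS lowered Ifnb1 in Nrf2+/+ cells by 8.48-fold, a difference of -3.08 ± 0.74 (adjusted p = 0.0103, 95% interval -4.67 to -1.50). The gene was still 3.97 ± 0.74 above albumin (adjusted p = 0.00105). In Nrf2-/- cells the heme difference was 0.47 ± 0.61 (adjusted p = 0.824), with an interval of -0.84 to 1.77. Between genotypes under heme and LPS the difference was 4.49 ± 0.66 (adjusted p = 0.000848, interval 3.07 to 5.90), and under LPS it was 0.93 ± 0.69 (adjusted p = 1, interval -0.55 to 2.42). The difference of the 2 heme effects was 3.55 ± 0.96 with an unadjusted p of 0.00232 and an adjusted p of 0.127. The heme call in Nrf2+/+ cells ended after quantile normalization (-2.12, adjusted p = 0.245), with only the 2 groups in the fit (adjusted p = 0.127) and without Nrf2+/+ LPS array b (-2.62, adjusted p = 0.0541), and the genotype call ended after quantile normalization (3.28, adjusted p = 0.0582). The difference of the heme effects was called without Nrf2+/+ LPS array a, whose Ifnb1 reading was the lowest of its group (4.33, adjusted p = 0.0455).

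**Figure D3:**
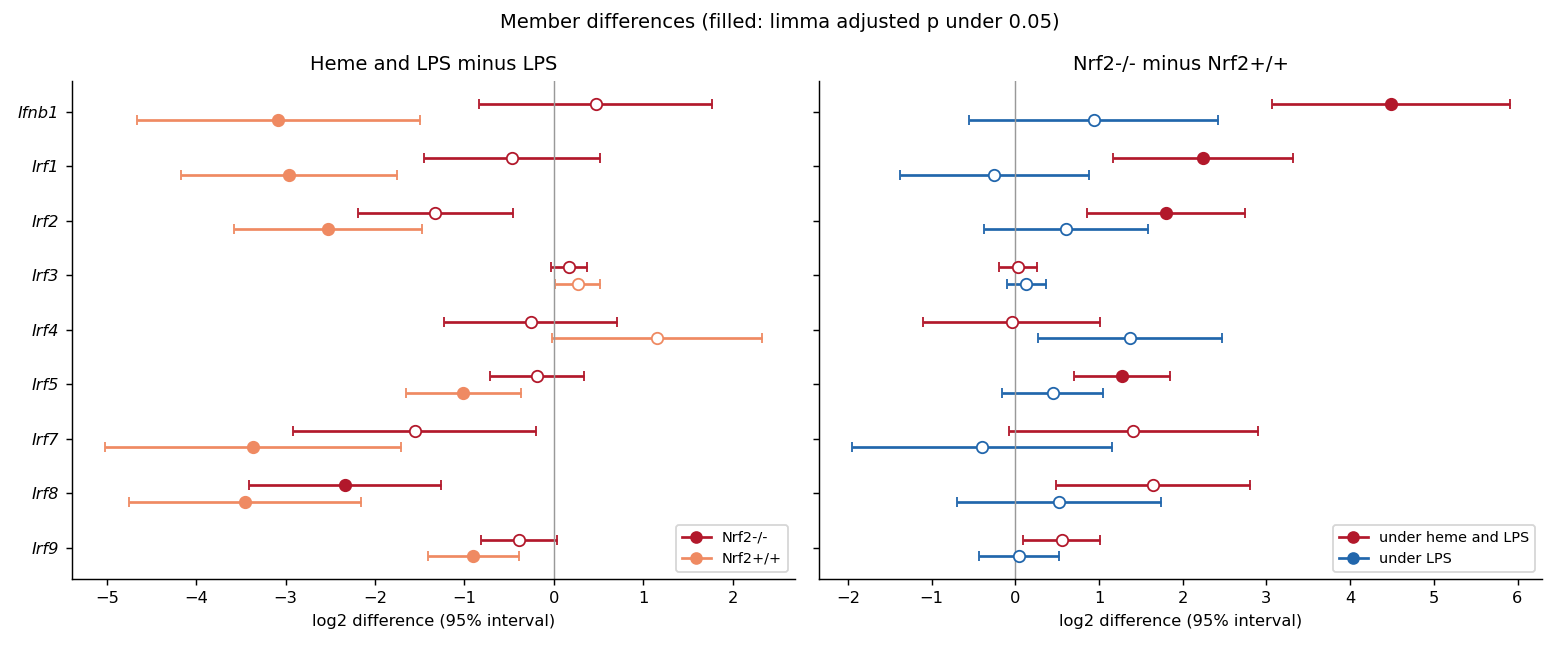
Log2 difference of group means with its 95% interval for the 9 genes, for heme and LPS against LPS in each genotype and for Nrf2-/- against Nrf2+/+ under each treatment. Filled points were called at an adjusted p under 0.05. Ifnb1 lies at 0.47 for heme in Nrf2-/- cells and at -3.08 in Nrf2+/+ cells.

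Irf3, the factor that starts Ifnb1 transcription, was lowered by LPS by 0.89 ± 0.12 log2 units (adjusted p = 5.2e-05). It read -0.34, -0.13, -0.53, -0.33 and -0.48 in Nrf2-/- cells under heme and LPS, and -0.43, -0.24 and -0.51 in Nrf2+/+ cells under heme and LPS. Under LPS it read -0.33, -0.73, -0.58 and -0.49 in Nrf2-/- cells and -0.63, -0.80 and -0.55 in Nrf2+/+ cells, against 0.27, 0.18 and 0.23 with albumin. The albumin arrays stood above all LPS-treated arrays, and the 4 LPS-treated groups overlapped along their order. The heme difference was 0.27 ± 0.12 in Nrf2+/+ cells (adjusted p = 0.174) and 0.17 ± 0.10 in Nrf2-/- cells (adjusted p = 0.422). The genotypes under heme and LPS differed by 0.03 (interval -0.19 to 0.25). Against albumin, Irf3 in Nrf2+/+ cells under heme and LPS had a difference of -0.62 ± 0.12 (adjusted p = 0.00109).

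Irf7, the feedback factor, was raised 15.8-fold by LPS in Nrf2+/+ cells, by 3.98 ± 0.77 log2 units (adjusted p = 0.00129). Its readings were 1.57, -1.03, 1.50, 2.15 and 1.19 in Nrf2-/- cells and 1.32, -1.62 and -0.70 in Nrf2+/+ cells under heme and LPS. With LPS alone they were 2.68, 2.30, 2.15 and 3.39 in Nrf2-/- cells and 3.89, 2.82 and 2.40 in Nrf2+/+ cells, and with albumin -0.85, -1.06 and -0.92. Both heme groups lay below both LPS groups, though the highest Nrf2-/- heme reading and the lowest Nrf2-/- LPS reading both round to 2.15, and 1 array in each heme group lay at the albumin level or lower. Heme lowered Irf7 in Nrf2+/+ cells by 3.37 ± 0.77 (adjusted p = 0.00782), to a level 0.61 ± 0.77 from albumin (adjusted p = 0.633). The difference in Nrf2-/- cells was -1.56 ± 0.64 (adjusted p = 0.203), and between genotypes under heme and LPS it was 1.41 ± 0.69 (adjusted p = 0.343). The Nrf2+/+ call ended with only the 2 groups in the fit (adjusted p = 0.119).

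Irf9, the DNA-binding subunit of ISGF3, moved over a narrower range. It read 0.75, -0.07, 0.11, 0.54 and 0.31 in Nrf2-/- cells under heme and LPS, and 0.41, -0.69 and -0.40 in Nrf2+/+ cells. Under LPS the Nrf2-/- arrays read 0.86, 0.60, 0.56 and 0.85 and the Nrf2+/+ arrays 0.76, 0.59 and 0.67, against -0.07, 0.02 and -0.08 with albumin. All neighbouring groups in the order overlapped. LPS raised it by 0.71 ± 0.24 (adjusted p = 0.0369), and heme lowered it in Nrf2+/+ cells by 0.90 ± 0.24 (adjusted p = 0.0192). In Nrf2-/- cells the heme difference was -0.39 ± 0.20 (adjusted p = 0.344). The LPS call ended without any 1 of the 6 arrays compared (adjusted p up to 0.1), and the heme call with only the 2 groups in the fit (adjusted p = 0.205) and in 4 of 6 fits without 1 array, namely Nrf2+/+ heme and LPS array b or c or Nrf2+/+ LPS array a or c (-0.67 to -0.90, adjusted p up to 0.0939). Between genotypes under heme and LPS the difference was 0.55 ± 0.21 (adjusted p = 0.192), and it was called without Nrf2+/+ heme and LPS array a (0.87, adjusted p = 0.0111).

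Irf1, the inducible activator, was raised 14.9-fold by LPS in Nrf2+/+ cells, by 3.89 ± 0.56 log2 units (adjusted p = 0.000116). It read 2.47, 1.51, 1.97, 3.50 and 4.04 in Nrf2-/- cells under heme and LPS, and 1.08, -0.08 and 0.36 in Nrf2+/+ cells under heme and LPS. With LPS alone it read 3.19, 2.50, 3.21 and 3.78 in Nrf2-/- cells and 2.93, 3.28 and 4.04 in Nrf2+/+ cells, and with albumin -0.27, -0.68 and -0.48. Nrf2+/+ cells under heme and LPS overlapped no other group and stood between albumin and the 3 upper groups, which overlapped. Heme lowered Irf1 in Nrf2+/+ cells by 2.96 ± 0.56 (adjusted p = 0.00207), and the heme difference in Nrf2-/- cells was -0.47 ± 0.46 (adjusted p = 0.732, interval -1.46 to 0.52). Nrf2-/- cells under heme and LPS were 4.74-fold above Nrf2+/+ cells, by 2.25 ± 0.50 (adjusted p = 0.0163). The difference of the heme effects was 2.49 ± 0.73 (adjusted p = 0.174).

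The 2 Irf1 probes gave the same order of the genotypes under heme and LPS. One averaged 3.19 ± 0.92 (SD, n = 5) in Nrf2-/- cells and 1.01 ± 1.03 (n = 3) in Nrf2+/+ cells, and the other 2.21 ± 1.51 and -0.10 ± 0.18, the last with 2 of 3 arrays listed at 0. The genotype call for Irf1 ended with 0 values taken as missing (1.76, adjusted p = 0.0679), with the most variable probe in place of the mean (2.31, adjusted p = 0.103), with only the 2 groups in the fit (adjusted p = 0.202), and without Nrf2+/+ heme and LPS array b (adjusted p = 0.0874) or c (adjusted p = 0.0659).

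Irf2, the factor that shares binding sites with IRF1, was lowest in Nrf2+/+ cells under heme and LPS, where it overlapped no other group. Its readings were 1.24, -0.66, -0.33, 0.89 and 1.86 in Nrf2-/- cells under heme and LPS, and -0.96, -1.06 and -1.59 in Nrf2+/+ cells. With LPS alone they were 2.18, 1.80, 1.58 and 2.13 in Nrf2-/- cells and 1.47, 1.18 and 1.30 in Nrf2+/+ cells, and with albumin 0.86, 0.94 and 0.81. The spread over the 5 Nrf2-/- heme and LPS arrays was wide, and 2 of them lay below albumin. LPS moved it by 0.45 ± 0.49 (adjusted p = 0.569). Heme lowered it 5.75-fold in Nrf2+/+ cells (-2.52 ± 0.49, adjusted p = 0.00249), and the difference from albumin was -2.07 ± 0.49 (adjusted p = 0.00551). In Nrf2-/- cells the difference was -1.32 ± 0.40 (adjusted p = 0.0673), and with the replicate letter as a block it was -1.64 and called (adjusted p = 0.00673). Irf2 was 1.80 ± 0.44 higher in Nrf2-/- than in Nrf2+/+ cells under heme and LPS (adjusted p = 0.0265), a call that ended without replicate a of the LPS-treated groups (adjusted p = 0.117) and with only the 2 groups in the fit (adjusted p = 0.302). It also ended in 5 of 8 fits without 1 array, namely Nrf2-/- array a or d or any of the 3 Nrf2+/+ arrays under heme and LPS (adjusted p up to 0.122).

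Irf8, a factor of the myeloid lineage, fell under heme in both genotypes. It read 0.98, -1.41, -0.57, -0.17 and -0.08 in Nrf2-/- cells under heme and LPS, and -1.90, -1.89 and -1.89 in Nrf2+/+ cells. Under LPS the Nrf2-/- arrays read 3.30, 1.16, 1.24 and 2.64 and the Nrf2+/+ arrays 2.53, 1.13 and 1.01, with albumin arrays at 0.02, -0.02 and 0.01. Heme arrays did not overlap LPS arrays in either genotype, and the 3 Nrf2+/+ heme readings were almost equal. Heme lowered Irf8 by 11.0-fold in Nrf2+/+ cells, by 3.45 ± 0.61 (adjusted p = 0.00119), and by 5.05-fold in Nrf2-/- cells, by 2.34 ± 0.50 (adjusted p = 0.0109). The difference of these effects was 1.12 ± 0.79 (adjusted p = 0.886, interval -0.57 to 2.80). Between genotypes under heme and LPS it was 1.64 ± 0.54 (adjusted p = 0.109), although the arrays did not overlap, and it was called without Nrf2-/- array b (adjusted p = 0.0416). The Nrf2-/- heme call ended with only the 2 groups in the fit (adjusted p = 0.0952). Against albumin, Irf8 in Nrf2+/+ cells under heme and LPS had a difference of -1.90 ± 0.61 (adjusted p = 0.0307). That call ended without any 1 of the 6 arrays compared (adjusted p up to 0.0723).

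Irf5, the activator of inflammatory cytokines, was raised 3.00-fold by LPS (1.58 ± 0.30, adjusted p = 0.00104). It read 1.33, 0.62, 1.41, 1.88 and 1.76 in Nrf2-/- cells under heme and LPS, and 0.12, 0.24 and 0.02 in Nrf2+/+ cells. Under LPS the readings were 0.99, 1.71, 1.99 and 1.65 in Nrf2-/- cells and 0.68, 1.36 and 1.38 in Nrf2+/+ cells, and with albumin -0.45, -0.47 and -0.41. The 3 upper groups overlapped, and Nrf2+/+ cells under heme and LPS lay between them and albumin. Heme lowered Irf5 by 1.01 ± 0.30 in Nrf2+/+ cells (adjusted p = 0.0338), and the difference in Nrf2-/- cells was -0.19 ± 0.25 (adjusted p = 0.824). It was 1.27 ± 0.27 higher in Nrf2-/- than in Nrf2+/+ cells under heme and LPS (adjusted p = 0.011), and with the replicate letter as a block the value was 1.07 and not called (adjusted p = 0.051). Both calls ended with only the 2 groups in the fit (adjusted p = 0.0781 for heme and 0.11 for genotype). The heme call also ended in 5 of 6 fits that left out 1 array, all but the one without Nrf2+/+ LPS array a (adjusted p up to 0.124), and the genotype call without Nrf2+/+ heme and LPS array c (adjusted p = 0.0548).

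Irf4, linked to alternative activation, was listed at exactly 0 on 6 of 18 arrays, so no mean is given where a reading is 0. It read 0, 0, -0.67, -0.99 and -1.79 in Nrf2-/- cells under heme and LPS, and 0, -0.59 and -1.34 in Nrf2+/+ cells. Under LPS it read 0, 0, 0 and -1.73 in Nrf2-/- cells and -2.31, -2.06 and -1.02 in Nrf2+/+ cells, against -0.44, -0.66 and -0.61 with albumin. Each group overlapped its neighbour in the order, and no comparison called the gene. The difference of the heme effects was -1.41 ± 0.71 (adjusted p = 0.69), and that between genotypes under LPS was 1.37 ± 0.51 (adjusted p = 1). The 3 Nrf2-/- LPS arrays at 0 enter both.

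The genes around Ifnb1 and the IRFs were taken as lists and are described by counts. For all counts that follow, LPS raised 12.3% and lowered 16.3% of all genes. Heme raised 8.34% and lowered 6.35% in Nrf2+/+ cells, and raised 4.10% and lowered 2.67% in Nrf2-/- cells. Between genotypes under heme and LPS, 2.13% were higher and 3.16% lower in Nrf2-/- cells. Of 15 measured genes that sense LPS or nucleic acid and lead to Ifnb1, LPS raised 10 and lowered 1, heme raised 1 and lowered 7 in Nrf2+/+ cells, and heme raised 2 and lowered 1 in Nrf2-/- cells. At an unadjusted p under 0.05 heme moved 12 of 15 in each genotype. The share of all genes at that level is not given here, for this list or the later ones. The median heme difference was -1.13 in Nrf2+/+ and -0.69 in Nrf2-/- cells. The 7 that fell in Nrf2+/+ cells were sensors of nucleic acid and the kinase TBK1 with its partner TANK. Dhx58 fell by 2.80 ± 0.60 (adjusted p = 0.00516) and Ddx58 by 2.62 ± 0.55 (adjusted p = 0.00429), both RNA helicases, and the others were Zbp1, Ifih1, Cgas, Tank and Tbk1. Ticam1, which encodes TRIF, rose with heme in both genotypes, by 1.06 ± 0.24 in Nrf2+/+ (adjusted p = 0.00672) and 0.84 ± 0.20 in Nrf2-/- cells (adjusted p = 0.0182). Tlr4 was lowered by heme in Nrf2-/- cells (-0.69 ± 0.17, adjusted p = 0.0251) and was lower in Nrf2-/- than in Nrf2+/+ cells under heme and LPS (-1.13 ± 0.19, adjusted p = 0.00212), the opposite direction to Ifnb1. The count of 7 fell to 3 without Nrf2+/+ heme and LPS array b or c or Nrf2+/+ LPS array a, and to 4 without Nrf2+/+ LPS array c.

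Of 7 listed factors that act at the Ifnb1 promoter beside IRFs, Nfkb1 and Hmga1 were not measured. Of the 5 measured, heme lowered 2 in Nrf2+/+ cells. These were Jun, a part of AP-1 (-1.52 ± 0.33, adjusted p = 0.00525), and Rela, a subunit of NF-kB (-0.91 ± 0.19, adjusted p = 0.00493). Jun also fell in Nrf2-/- cells, by 1.05 ± 0.27 (adjusted p = 0.0307). None of 14 other measured interferon genes was called in any of the 7 comparisons. LPS against albumin left 1 of them at an unadjusted p under 0.05, Ifna1 (1.06 ± 0.40, adjusted p = 0.0612). Heme and LPS against LPS left 0 in either genotype, and heme and LPS against albumin left 3. Values listed at 0 limit these counts. Ifna4 was listed at 0 on 17 arrays, Ifne on 14, and Ifng and Ifnk on 13 each. Ifna1, Ifna5, Ifna14 and Ifnl3 were listed at 0 on no array. For the genes mostly at 0, the lack of a call does not show the lack of a response.

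Of 14 measured genes of interferon receptors, JAK-STAT signalling and its brakes, LPS raised 9, and heme lowered 7 in Nrf2+/+ cells and 0 in Nrf2-/- cells, where 3 had an unadjusted p under 0.05. Usp18, a brake on the interferon receptor, fell by 3.88 ± 0.87 (adjusted p = 0.00663) and Stat2, a subunit of ISGF3, by 2.53 ± 0.63 (adjusted p = 0.0129). Jak2 fell by 1.79 ± 0.38 (adjusted p = 0.00421), and the receptor chain Ifnar1 by 1.10 ± 0.27 (adjusted p = 0.013). Socs3, a brake mainly on other cytokine receptors, had a difference of 0.35 ± 0.15 (adjusted p = 0.169). Socs1 was 1.18 ± 0.31 higher in Nrf2-/- than in Nrf2+/+ cells under heme and LPS (adjusted p = 0.0401). The count of 7 fell to 4 without replicate a of the LPS-treated groups or without Nrf2+/+ heme and LPS array c, and to 2 without Nrf2+/+ LPS array a.

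**Figure D4:**
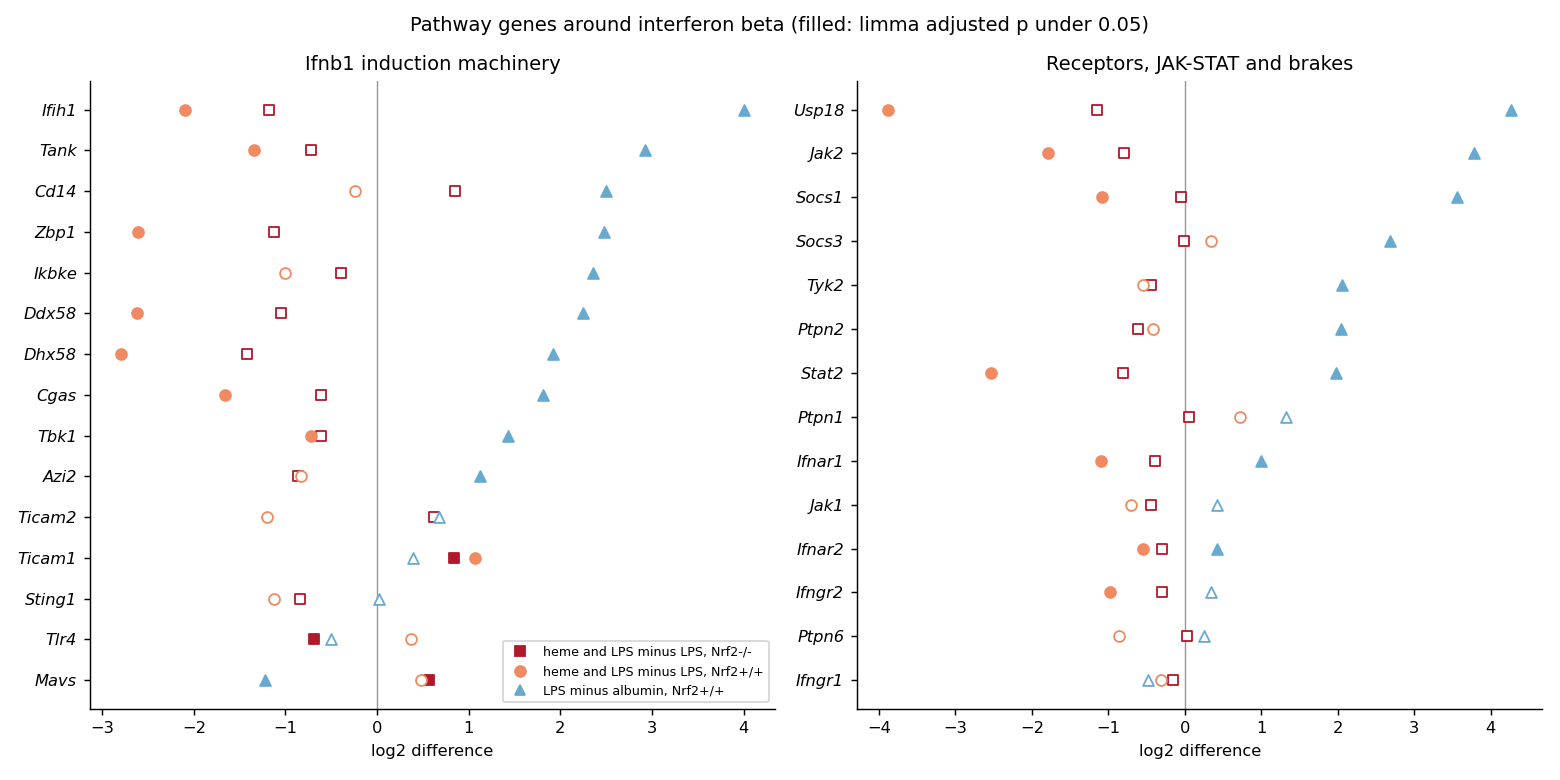
Log2 differences for the genes that lead to Ifnb1 (left) and those of the receptor and JAK-STAT list (right), as squares for heme and LPS against LPS in Nrf2-/- cells, circles for the same in Nrf2+/+ cells and triangles for LPS against albumin in Nrf2+/+ cells. Filled symbols were called at an adjusted p under 0.05. Dhx58 lies at -1.42 in Nrf2-/- cells and -2.80 in Nrf2+/+ cells, and Ticam1 is above 0 in both genotypes.

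Targets of ISGF3, antiviral genes downstream of IFN-β, numbered 19 measured genes. LPS raised 18, with a median difference of 3.25, and heme lowered 16 in Nrf2+/+ cells (median -2.47) and 0 in Nrf2-/- cells (median -0.89), where 3 had an unadjusted p under 0.05. Ifit2, an RNA-binding antiviral protein, fell in Nrf2+/+ cells by 4.37 ± 1.05 (adjusted p = 0.0103) and Cmpk2 by 4.26 ± 1.02 (adjusted p = 0.0101), while Oasl1 had -0.72 ± 0.44 (adjusted p = 0.391) and the chemokine gene Cxcl10 had -3.70 ± 1.24 (adjusted p = 0.0634). Under heme and LPS 1 of 19, Ifit3, was higher in Nrf2-/- than in Nrf2+/+ cells (2.08 ± 0.56, adjusted p = 0.0449). The list medians were 3.31, 1.19, 2.57, 3.45 and 3.24 in Nrf2-/- cells under heme and LPS and 2.80, -0.63 and 0.34 in Nrf2+/+ cells, so the genotypes overlapped. They were 3.89, 3.43, 3.23 and 4.05 in Nrf2-/- and 4.02, 3.51 and 3.29 in Nrf2+/+ cells under LPS. Nrf2-/- heme and LPS array b was the lowest of its group for these targets and for Irf1, Irf2, Irf5, Irf7, Irf8 and Irf9 although its Ifnb1 reading was 8.11. Nrf2+/+ heme and LPS array a was the highest of its group for the targets, Ifnb1, Irf1, Irf7 and Irf9. The count of 16 fell to 3 and 5 without Nrf2+/+ heme and LPS array b and c, and to 4 and 7 without Nrf2+/+ LPS array a and b. It was 18 without Nrf2+/+ heme and LPS array a.

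Of 16 genes linked to IRF1, LPS raised 15 (median 3.84) and heme lowered 12 in Nrf2+/+ cells (median -2.91) and 1, Psmb9, in Nrf2-/- cells (-1.17 ± 0.32, adjusted p = 0.0425). In Nrf2-/- cells the list median was -0.84, and 9 of 16 had an unadjusted p under 0.05. In Nrf2+/+ cells the GTPase gene Iigp1 fell by 5.92 ± 1.02 (adjusted p = 0.00105), and Nos2, which makes nitric oxide, had -3.75 ± 0.41 (adjusted p = 2.49e-05). Under heme and LPS 7 of 16 were higher in Nrf2-/- than in Nrf2+/+ cells, including the interleukin 12 subunit Il12b (3.99 ± 0.76, adjusted p = 0.00569) and the chemokine Cxcl9 (3.37 ± 0.54, adjusted p = 0.00173). The difference of the heme effects was called for 1 of 16, Nos2 (2.96 ± 0.53, adjusted p = 0.0144), where 0.240% of all genes were called higher. List medians were 3.89, 2.45, 3.62 and 3.47 on Nrf2-/- arrays a, c, d and e under heme and LPS, with array b lower than these, and 2.07, 0.47 and 0.97 in Nrf2+/+ cells under heme and LPS. These genotypes also overlapped, since Nrf2-/- array b lay below Nrf2+/+ array a. Leaving out any 1 of the 6 arrays compared gave 12 to 13 lowered genes in Nrf2+/+ cells.

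**Figure D5:**
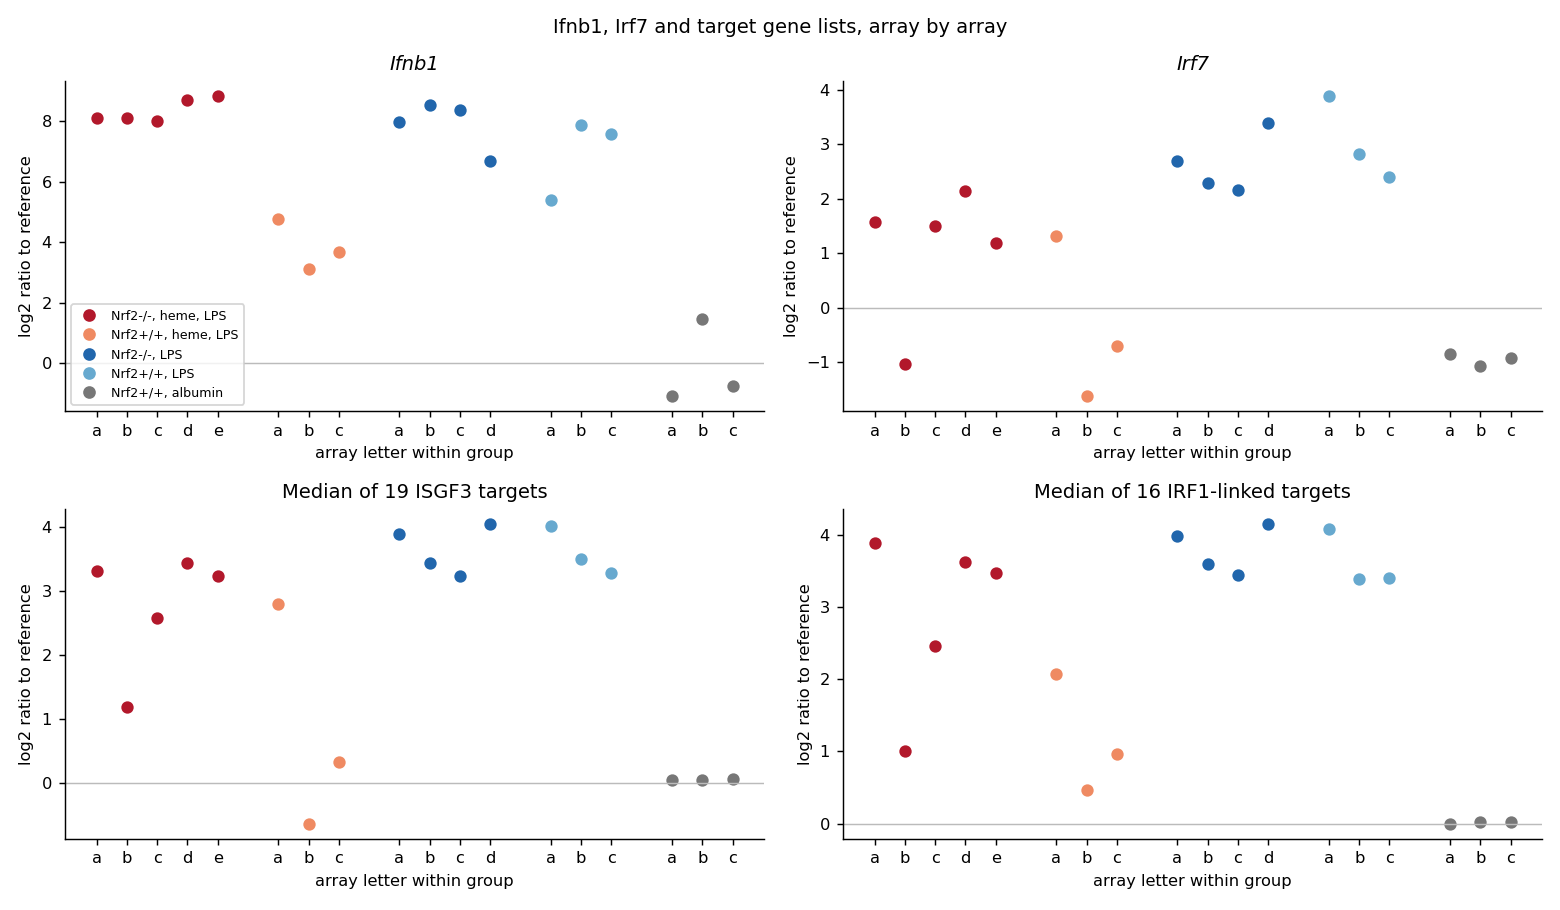
Log2 ratio of Ifnb1 and Irf7 (upper panels) and the median log2 ratio over the ISGF3 targets and the IRF1-linked genes (lower panels), with 1 point per array, lettered within its group. In the ISGF3 list the Nrf2-/- heme and LPS arrays lie between 1.19 and 3.45 and the Nrf2+/+ heme and LPS arrays between -0.63 and 2.80.

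Markers of cell types other than macrophages moved with heme in a few cases. Of all genes, heme raised 8.34% and lowered 6.35% in Nrf2+/+ cells, and raised 4.10% and lowered 2.67% in Nrf2-/- cells. Among 7 markers of plasmacytoid dendritic cells, which make much interferon, heme lowered Tcf4 (-1.94 ± 0.29, adjusted p = 0.000314) and Bst2 (-1.10 ± 0.31, adjusted p = 0.0247) in Nrf2+/+ cells, while Siglech had 0.11 ± 0.17 (adjusted p = 0.839). Bst2 also belongs to the ISGF3 list. In Nrf2-/- cells heme lowered Tcf4 too (-1.23 ± 0.24, adjusted p = 0.00553). Per array, the median over these 7 markers lay between -0.08 and 0 under heme and LPS and between 0.13 and 0.20 under LPS in Nrf2+/+ cells. On Nrf2+/+ heme and LPS arrays a and c this median was exactly 0, and 1 marker was listed at 0 on each. In Nrf2-/- cells the ranges overlapped, at 0.02 to 0.31 under heme and LPS and 0 to 0.27 under LPS. Heme raised 2 of 9 neutrophil markers in Nrf2+/+ cells, S100a8 and Elane, and 1 of 9 in Nrf2-/- cells, Elane (0.98 ± 0.19, adjusted p = 0.0056). In Nrf2+/+ cells it lowered 1 of 7 macrophage markers, the uptake receptor Mertk (-3.08 ± 0.80, adjusted p = 0.0168). None of the markers of conventional dendritic, B, T or NK cells was called in either heme comparison, and none had an unadjusted p under 0.05. The part of other cells in the results was not tested, and in a bulk sample fewer cells of a type cannot be told apart from less RNA per cell.

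Profiles over the 18 arrays were compared by the root mean square difference of log2 ratios after each gene was centred on its own mean, in 13878 genes. Closest to Ifnb1 were Tnfsf15 (1.22), Edn1 (1.27), Gm13889 (1.34) and Adamts4 (1.35). Edn1, which encodes endothelin-1, averaged 7.55 ± 0.66 (SD, n = 5) in Nrf2-/- cells and 2.84 ± 1.40 (n = 3) in Nrf2+/+ cells under heme and LPS, so it had the same order of genotypes as Ifnb1. Irf1 had closer neighbours, Batf2 (0.48), AW112010 (0.50), Map3k8 (0.52) and Daxx (0.53). Irf7 was nearest to Phf11d (0.38), Tap1 (0.40), Parp12 (0.42) and Phf11b (0.44). Irf8 was nearest to Zbtb8a (0.42), Asb13 (0.55), Mid1 (0.57) and Ms4a4b (0.58). Irf2 was nearest to Isoc1 (0.42), Cutc (0.45), H2aw (0.45) and Mov10 (0.46), and Irf5 to Nr3c1 (0.32), Dyrk2 (0.35), Cep350 (0.35) and Serp1 (0.35). These distances share the arrays and grow with a gene's own range, so they describe likeness and test nothing.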

How the data were processed

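Each of the 18 arrays carried 1 macrophage sample and the untreated macrophage RNA. The deposited values are log10 ratios of sample over reference, made with Agilent Feature Extraction 10.5.1.1 per the submitters' processing notes. The log10 scale was inferred from the form of the values, and the sources used here do not give the background and dye correction. Each deposited column has a median of 0 and no missing value, no 2 arrays hold the same values, and 0 columns were left out. Of 44397 features 33026 had 1 gene symbol in the platform annotation, 0 had several and 11371 had none. Gene identifiers matched 32438 of these probes to RefSeq, which changed 0 symbols. Listed at 0 on every array were 1500 features and 486 genes.

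Conversion to log2 and the mean over each gene's probes gave 22485 genes, 16347 with 1 probe. Two-sided tests used limma 3.58.1 (lmFit, contrasts.fit and eBayes) in R 4.3.3, in 1 model with 5 group means and 7 comparisons, with Benjamini-Hochberg adjustment over all genes and a threshold of 0.05. The design text calls the replicates biological and independent. The number of arrays limits the precision, and no counting interval applies to arrays. The procedure was tested on simulated data. Promoters were searched in Python 3.11.15 with pandas 2.3.3, and figures were drawn with matplotlib 3.10.9.

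The members and gene lists were chosen with earlier results of these data known, so list counts are descriptions. Named from each list were up to 4 called and 2 not called genes by size of change, with a few genes in the text beyond these added after their values were seen. Profiles were compared for members whose group means spanned at least 2 log2 units, among genes at 0 on at most 4 arrays. Replicate letters come from the sample titles. Deviations of same-lettered arrays from their group means were correlated for each comparison. The correlations were 0.22 to 0.59 (heme in Nrf2-/-), 0.20 to 0.58 (genotype under LPS) and 0.23 to 0.53 (genotype under heme and LPS). They were 0.48, 0.01 and 0.01 for heme in Nrf2+/+ cells and between -0.02 and 0.02 for the comparisons with albumin. The main model held group means only and no letter term, so its p-values take no account of pairing by letter. Letters entered only in the replicate block, which was also applied to comparisons where these correlations were near 0. Alternatives were median centring, quantile normalization, a filter on zeros, zeros as missing, the most variable probe per gene and only the groups compared. Further ones were the replicate block, leaving out replicate a of all LPS-treated groups, and each array left out in turn.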

Additional observations from a re-analysis of the deposited data

Results flagged for a closer look

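Irf4 read -1.73 on Nrf2-/- LPS array d, while the other 3 arrays of that group were listed at exactly 0. Its gap to the nearest array equalled the whole range of the group. It was the 1 reading marked as outlying among 18 groups of 4 or 5 arrays tested over the 9 genes. With the other 3 readings tied at 0, any other value on array d would have been marked. The mark therefore does not show that this reading is an outlier. The chance rate of about 1 in 20 such groups does not apply to tied readings.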

How the results depend on the processing

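The number of arrays and values listed at 0 limit these results, and p-values near the threshold moved with the choice of arrays. Median centring changed nothing, since each array already had a median of 0. Over the 9 genes and 7 comparisons, 465 of the single-gene values kept direction and call under the alternatives, 14 lost a call, 14 gained one and 11 changed sign. These 465 include all values under median centring, which repeat the main fit and could not have changed. With 1 array left out, 465 kept direction and call, 30 lost a call, 5 gained one and 13 changed sign. The cause was not tested. The number of members called for heme in Nrf2+/+ cells was 3 with only the groups compared in the fit, against 7. For heme in Nrf2-/- cells it was 2 without genes at 0 on most arrays, 0 with only the groups compared and 2 with the replicate block, against 1. For genotype under heme and LPS it was 1 with only the groups compared, against 4. With 1 array left out the members called numbered 5 for LPS against albumin, 5 to 6 for heme in Nrf2+/+, 1 to 2 for heme in Nrf2-/-, 0 to 1 for the difference of the heme effects, 0 for genotype under LPS, 1 to 5 for genotype under heme and LPS and 3 for heme and LPS against albumin. For heme in Nrf2+/+ cells the lowered genes then numbered 3 to 6 of the genes leading to Ifnb1, 2 to 5 of the receptor and JAK-STAT genes and 3 to 18 of the ISGF3 targets. Without replicate a of the LPS-treated groups, the receptor and JAK-STAT count was 4. These list counts were added after seeing the data.

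With the replicate block the difference of the heme effects called 1 member, Irf1 (2.16, adjusted p = 0.039), where the letters do not pair all 4 groups. LPS against albumin then called 8, with Irf4 (adjusted p = 0.0371) and Irf8 (adjusted p = 0.0257) added, and heme and LPS against albumin called 5, with Irf1 (adjusted p = 0.0384) added. The block changed no other call than these and those given for Irf2 and Irf5.

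The values that changed sign were all of genes not called. Quantile normalization gave -0.18 for Irf2 under LPS against albumin (adjusted p = 0.825), -0.000247 for Irf9 between genotypes under LPS, 0.050 for Irf4 between genotypes under heme and LPS and 0.23 for Irf4 under heme and LPS against albumin. The replicate block gave 0.018 for Irf4 under heme in Nrf2-/- cells, -0.012 for Irf9 between genotypes under LPS and 0.54 for Irf4 between genotypes under heme and LPS. Zeros taken as missing gave 0.58 for Irf4 under heme in Nrf2-/- cells. Without replicate a of the LPS-treated groups, Irf7 was 0.0065 between genotypes under LPS and -0.22 under heme and LPS against albumin, and Irf4 was 0.10 between genotypes under heme and LPS. With 1 array left out the heme difference in Nrf2-/- cells was -0.69 to 0.018 for Irf4 and -0.39 to 0.0068 for Irf5. Between genotypes under LPS it was -0.49 to 0.063 for Irf1, -0.72 to 0.024 for Irf7 and -0.00107 to 0.097 for Irf9. Under heme and LPS it was -0.028 to 0.11 for Irf3 and -0.39 to 0.28 for Irf4. Against albumin it was -0.40 to 0.27 for Irf4, -0.22 to 1.25 for Irf7 and -0.50 to 0.046 for Irf9.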

Other observations

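Genes that work with or follow IRF4, IRF5 and IRF8 did not move one way. Of 20 measured, heme raised 3 and lowered 3 in Nrf2+/+ cells, where it raised 8.34% and lowered 6.35% of all genes. In Nrf2-/- cells it raised 2 and lowered 1, against 4.10% and 2.67% of all genes. The list medians were -0.08 in Nrf2+/+ and 0.07 in Nrf2-/- cells. The myeloid factor Cebpa rose by 4.45 ± 0.61 log2 units in Nrf2+/+ cells (adjusted p = 0.000168) and by 1.92 ± 0.50 in Nrf2-/- cells (adjusted p = 0.0334), and was 3.09 ± 0.55 lower in Nrf2-/- cells under heme and LPS (-3.09, adjusted p = 0.00347). Irf2bp2, a corepressor that binds IRF2, was lowered by LPS (-5.81 ± 0.60, adjusted p = 6.46e-06) and raised by heme in Nrf2+/+ cells (2.82 ± 0.60, adjusted p = 0.00472), opposite to Irf2 under heme. Batf2, a partner of IRF1, was lowered by heme in Nrf2+/+ cells (-2.91 ± 0.70, adjusted p = 0.0106) and was higher in Nrf2-/- than in Nrf2+/+ cells under heme and LPS (2.38 ± 0.63, adjusted p = 0.0419). The cytokine genes Il6 and Tnf had heme differences of -1.19 ± 0.57 (adjusted p = 0.233) and 0.34 ± 0.21 (adjusted p = 0.402) in Nrf2+/+ cells. These genes were named partly after their values were seen.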
